A study of Mus musculus with 24 samples.

Results

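Livers of mice lacking the transfer RNA gene tRNA-Phe-1-1 were compared with livers of mice lacking its relative tRNA-Phe-2-1. The comparison used 6 of the 24 samples of the series, the 3 labelled Liver Phe11KO and the 3 labelled Liver Phe21KO, and it set one deletion directly against the other. The whole series holds bulk RNA sequencing of brain and liver from wild-type mice (WT) and from 3 single knockouts, Phe11KO, Phe21KO and Phe31KO, with 3 samples per genotype and tissue. The mice were males on a C57BL/6N background, 10 weeks old, and came from separate lines for each deletion; matching by litter was described between mutants and wild types, not between the lines compared here. Each knockout line carried a homozygous deletion made with the same CRISPR guide, was backcrossed, and kept the other 6 tRNA-Phe genes, so each group describes one deletion line and not the loss of all tRNA-Phe. Samples were called replicates by their letters A, B and C only, so p-values measure the spread between these samples.

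Transfer RNAs carry amino acids to the ribosome, and the tRNA-Phe genes of the mouse nuclear genome all read phenylalanine codons with the same anticodon. The liver makes most plasma proteins, and under inflammatory signals hepatocytes raise a known set of secreted acute phase proteins together with metallothioneins, small metal-binding proteins. Hepatic transcripts also cycle with the time of day under a clock in which BMAL1 with CLOCK or NPAS2 activates the period genes, whose products repress them.

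The deleted genes are nearly identical, and both are shown with the guide because they define the comparison. In the GRCm39 assembly, the guide's target of 20 bases was found in 7 tRNA-Phe genes, and 5 of them, tRNA-Phe-1-1 included, had the same 73 bases. The gene tRNA-Phe-1-1 lies at chr5:125483119-125483191 on the minus strand and tRNA-Phe-2-1 at chr19:11985909-11985981 on the plus strand; of the copies on that second chromosome, tRNA-Phe-2-1 was taken as the one that differs in sequence. Capitals mark the 2 positions at which they differ, counted from 1 at the 5′ end of the gene, and in the guide's target capitals mark the PAM.
tRNA-Phe-1-1: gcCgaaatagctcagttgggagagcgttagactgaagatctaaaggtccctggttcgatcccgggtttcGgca
tRNA-Phe-2-1: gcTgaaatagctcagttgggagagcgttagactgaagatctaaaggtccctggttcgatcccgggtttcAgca
guide target: gcgttagactgaagatctaaAGG
The substitutions from tRNA-Phe-1-1 to tRNA-Phe-2-1 were C3T and G70A, which face each other in the acceptor stem. A copy identical to tRNA-Phe-1-1 lies beside tRNA-Phe-2-1 at chr19:11979600-11979672. The libraries counted messenger and other long RNAs, and the deleted tRNA genes were not analysed here, so no value checked the genotype labels.

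The 6 libraries held 39357744 to 51584522 reads assigned to genes, and 21318 to 21763 genes had a value above 0. Counts were normalised by the authors for sequencing depth, and every value below is such a normalised count unless it is named a log2 difference. Of 15856 genes with a mean of at least 10, 2521 passed an adjusted p of 0.05 (limma), which is 15.9% of the genes tested; 7.37% were higher and 8.53% lower in Phe11KO. Rose and fell mean here higher and lower in Phe11KO than in Phe21KO, whichever of them lies nearer to WT. The median log2 difference over all genes tested was -0.00 and the median of its size was 0.27. Groups did not overlap for 38.0% of all genes tested and for 99.5% of those that passed. Of the genes that passed, 429 were more than 2-fold higher in Phe11KO and 374 more than 2-fold lower. Without Phe11KO A the count of genes was 1549, without Phe21KO B 1150 and without Phe21KO C 1466. Phe11KO B differed most from its group, with a chi-square per degree of freedom of 146 against A and 158 against C, while A and C gave 60.6. The 3 Phe21KO pairs gave 32.8 to 60.6. Without Phe11KO B, 1708 genes passed. Where a gene is given with its own values and its call ended on leaving out 1 of the 6 libraries, those libraries are named with the highest adjusted p they gave.

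Genes beside the deletions were compared for differences in local expression. Of 6 genes tested within 250 kb of tRNA-Phe-1-1, 2 passed. Bri3bp, 35441 bases away, was counted at 1059, 805 and 1156 in Phe11KO A, B and C and at 1456, 1525 and 1330.1 in Phe21KO, a log2 difference of -0.53 ± 0.14 (adjusted p = 0.0241). Of 4 genes tested within 250 kb of tRNA-Phe-2-1, none passed under limma, 2 had an unadjusted p under 0.05 and 1 passed under edgeR, and their log2 differences ran from -0.07 to 0.58. The nearest gene tested, Dhx37, 7620 bases from tRNA-Phe-1-1, had an adjusted p of 0.137. Leaving out 1 library ended the call of Bri3bp (Phe11KO B, Phe21KO A or Phe21KO B, adjusted p up to 0.0946).

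The metallothioneins were the transcripts with the largest rise. Mt1 was counted at 6662, 22706 and 2488 in Phe11KO A, B and C and at 86.5, 109 and 72.8 in the Phe21KO livers. Mt2 was counted at 1147, 8695 and 521 against 16.8, 13.0 and 21.2. Every Phe11KO liver lay far above every Phe21KO liver for both genes, and within Phe11KO the second liver was the highest and the third the lowest. The log2 differences were 6.34 ± 0.74 (SE; adjusted p = 0.000421) for Mt1 and 6.61 ± 0.81 (adjusted p = 0.000503) for Mt2. Wild-type livers gave 81.1, 228 and 415 for Mt1, and Phe31KO livers 244, 90.0 and 91.5, so the other 3 genotypes lay well under Phe11KO. Slc39a14, an importer of zinc into hepatocytes that inflammatory signals are known to raise, was counted at 17362, 19024 and 17589 against 6494, 5839 and 6424, a log2 difference of 1.53 ± 0.16 (adjusted p = 0.000202). Mtf1, the metal-sensing transcription factor of these genes, rose by a log2 difference of 0.43 ± 0.10. The manganese and zinc exporter Slc30a10 was lower, at 1751, 2198 and 2006 in Phe11KO against 3308, 3554 and 2887 in Phe21KO. For Slc30a10, WT livers gave 4280, 2924 and 3124, and Phe31KO livers 2375, 2076 and 2144, overlapping Phe11KO. Of the 8 genes listed for metallothioneins and zinc handling, all tested, 4 passed upwards and 1 downwards, and the median log2 difference was 0.38. With 1 library left out, the call ended for Mtf1 (Phe21KO B, adjusted p = 0.077).

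The windows around the start sites of Mt1 and Mt2 (RefSeq, GRCm38.p6, 250 bases before to 50 after the start) are shown because these neighbouring genes moved together. The core of the metal response element was searched as TGCACNC and TGCGCNC on both strands and is printed in capitals; the Mt1 window lies at chr8:94178839-94179138 and the Mt2 window at chr8:94172368-94172667, both on the plus strand.
Mt1: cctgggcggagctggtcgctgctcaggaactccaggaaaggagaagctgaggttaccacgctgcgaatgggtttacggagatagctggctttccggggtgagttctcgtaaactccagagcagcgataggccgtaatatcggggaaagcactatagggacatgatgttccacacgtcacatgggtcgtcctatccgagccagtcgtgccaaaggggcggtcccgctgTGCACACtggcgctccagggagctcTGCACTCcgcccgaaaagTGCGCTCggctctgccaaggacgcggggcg
Mt2: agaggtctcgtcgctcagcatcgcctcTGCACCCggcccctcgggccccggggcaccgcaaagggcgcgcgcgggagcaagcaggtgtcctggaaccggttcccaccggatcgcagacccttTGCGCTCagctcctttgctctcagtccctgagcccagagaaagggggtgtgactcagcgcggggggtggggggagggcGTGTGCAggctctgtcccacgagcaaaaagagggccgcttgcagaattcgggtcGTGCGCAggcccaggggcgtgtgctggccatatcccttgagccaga
The core matched 3 times in the Mt1 window and 4 times in the Mt2 window. At least 1 match was held by 25.7% of all 32851 promoter windows, by 39.5% of all tested genes with a window, by 40.5% of genes higher and by 38.8% of genes lower in Phe11KO. A match is a description of letters, not of binding.

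The acute phase transcripts rose together. Of 35 listed genes, all tested, 27 were higher, none was lower, and 8 did not pass; the list's median log2 difference was 1.17, against -0.00 over all genes tested. Groups did not overlap for 30 of the 35, all higher, beside 38.0% of all genes tested in either direction. All 4 serum amyloid A genes passed. Saa1 was counted at 32101, 43648 and 9799 in Phe11KO A, B and C against 390.2, 1177 and 724 in Phe21KO, and Saa2 at 22583, 35421 and 4757 against 148, 319 and 252. The lowest Phe11KO value of each gene was more than any Phe21KO value, with log2 differences of 5.11 ± 0.62 (adjusted p = 0.000474) and 6.09 ± 0.74 (adjusted p = 0.000479). Saa1 and Saa2 are close copies, and reads shared between them were divided by the authors' estimation. Saa4, a constitutive member of the family, was counted at 28469, 21999.6 and 16534 against 3959.8, 4103 and 4184, a log2 difference of 2.42 ± 0.22.

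Secreted proteins of the same response were higher in 13 of 21 cases. Hp, which encodes the haemoglobin-binding protein haptoglobin, was counted at 239542, 280777 and 161971 against 62820.5, 64806 and 68189.7, and its log2 difference was 1.76 ± 0.19 (adjusted p = 0.000293). Lcn2, whose product binds bacterial siderophores, was counted at 1298, 3388 and 356 against 31.2, 31.5 and 50.7. Groups were wide apart for Lcn2 but spread widely within Phe11KO, and its log2 difference was 4.94 ± 0.95 (adjusted p = 0.00591). Serpina3m and Serpina3n, protease inhibitors of a family with several near copies, had log2 differences of 1.14 ± 0.07 (adjusted p = 2.8e-05) and 1.82 ± 0.22 (adjusted p = 0.000439). Serpina3m had tight groups, at 15408, 14322 and 15779 against 6529, 7198 and 6858. The fibrinogen chains Fga, Fgb and Fgg rose less, with log2 differences of 0.73, 0.72 and 0.64. Cxcl1, a neutrophil-attracting chemokine and no member of the list, was counted at 3833, 2959 and 1811 against 86.5, 89.2 and 84.8, a log2 difference of 4.96 ± 0.48 (adjusted p = 0.00016). The call was lost, on leaving out 1 library, for Fga (any but Phe11KO B or Phe11KO C, adjusted p up to 0.0725), Fgb (Phe21KO B or Phe21KO C, up to 0.058) and Fgg (any but Phe11KO C, up to 0.0992).

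Each of the 10 listed signalling genes of the acute phase response was higher in Phe11KO. The metalloreductase gene Steap4 was counted at 26200.1, 35321 and 13792 against 3628, 3195 and 3689, and the transcription factor gene Cebpd at 414, 648 and 518 against 128, 95.7 and 91.3. Stat3, the transcription factor that acts downstream of interleukin 6, rose by a log2 difference of 1.01 ± 0.13 from 3943, 3777 and 3664 to 7765, 8489.7 and 6719. Socs3, a feedback inhibitor of that pathway, rose by 2.14 ± 0.31, and the receptor genes Il6ra, Osmr and Il1r1 by 1.51, 1.76 and 1.91. In WT and Phe31KO, Stat3 was counted at 3651, 4548 and 4971 and at 4764, 3639 and 4375, so both of those genotypes lay below Phe11KO.

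Blood-cell markers moved beside these transcripts. The 9 neutrophil markers summed to 80.8 to 285 in Phe11KO and 13.8 to 41.3 in Phe21KO, with no overlap, but only 2 of them passed the expression filter. Of those 2, only S100a9 passed the test, at 95.0, 143 and 54.2 against 20.0, 28.3 and 5.53. S100a8 overlapped, at 39.5, 71.4 and 14.3 against 15.2, 8.70 and 3.69 (limma adjusted p = 0.0763). Its mean was 41.8 in Phe11KO, beside 6.11 in WT, 9.20 in Phe21KO and 10.4 in Phe31KO, so Phe11KO carried it past the filter. The 6 B and plasma cell markers summed to 129 to 219 in Phe11KO and 198 to 299 in Phe21KO, with overlap, and 3 of the 6 were lower. Their sums were higher in the other genotypes, 454 to 532 in WT and 351 to 478 in Phe31KO. Log2 differences were below 0 for 5 of the 6 and above 0 for 1, Jchain (0.98, limma adjusted p = 0.198). Ms4a1, the gene of CD20, was counted at 5.65, 3.53 and 6.14 against 20.0, 29.4 and 23.0. Of 11 Kupffer cell and macrophage markers, 1, Cd68, was higher (0.54) and none lower, and their sums overlapped at 11726 to 16505 and 12899 to 14345. None of the 4 monocyte, 5 cholangiocyte or 9 T and NK cell markers passed under limma or edgeR, with 3, 5 and 5 of them tested and 1 of each list at an unadjusted p under 0.05. Among 7 markers of sinusoidal endothelium, Lyve1 rose (1.91 ± 0.26 on the log2 scale) while Kdr and Clec4g fell (-0.65 and -0.50), and of 7 stellate cell markers Pdgfrb rose (0.55). Of 6 erythroid markers, 4 were tested and 1, Car1, was lower (-1.47). Markers of fat and exocrine pancreas did not reach the filter, and of 5 muscle markers 2 did and neither passed under limma or edgeR, or at an unadjusted p under 0.05. Hepatocyte markers were abundant in every liver, with 5 markers summing to 1760928 to 2204720.4 in Phe11KO and 1928194 to 2143453 in Phe21KO, Hnf4a higher (0.61) and Fabp1 lower (-0.82). WT livers gave 1185, 1420 and 1215 for Clec4g and 129, 62.3 and 81.7 for Car1, overlapping Phe11KO. They also overlapped Phe11KO for Pdgfrb and Fabp1, but not for Lyve1, Kdr, Cd68 or Hnf4a. The part of any cell type in the results was not tested, and fewer cells of a type and less RNA per cell cannot be told apart in bulk tissue. Calls that ended without 1 library were those of S100a9 (Phe11KO A, Phe11KO B or Phe21KO C, adjusted p up to 0.0832), Cd68 (any but Phe21KO C, up to 0.128), Clec4g (Phe11KO B, Phe21KO A or Phe21KO B, up to 0.116), Pdgfrb (any but Phe11KO C, up to 0.152), Car1 (any but Phe11KO A or Phe11KO C, up to 0.113) and Fabp1 (any but Phe11KO C, up to 0.136).

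**Figure D1:**
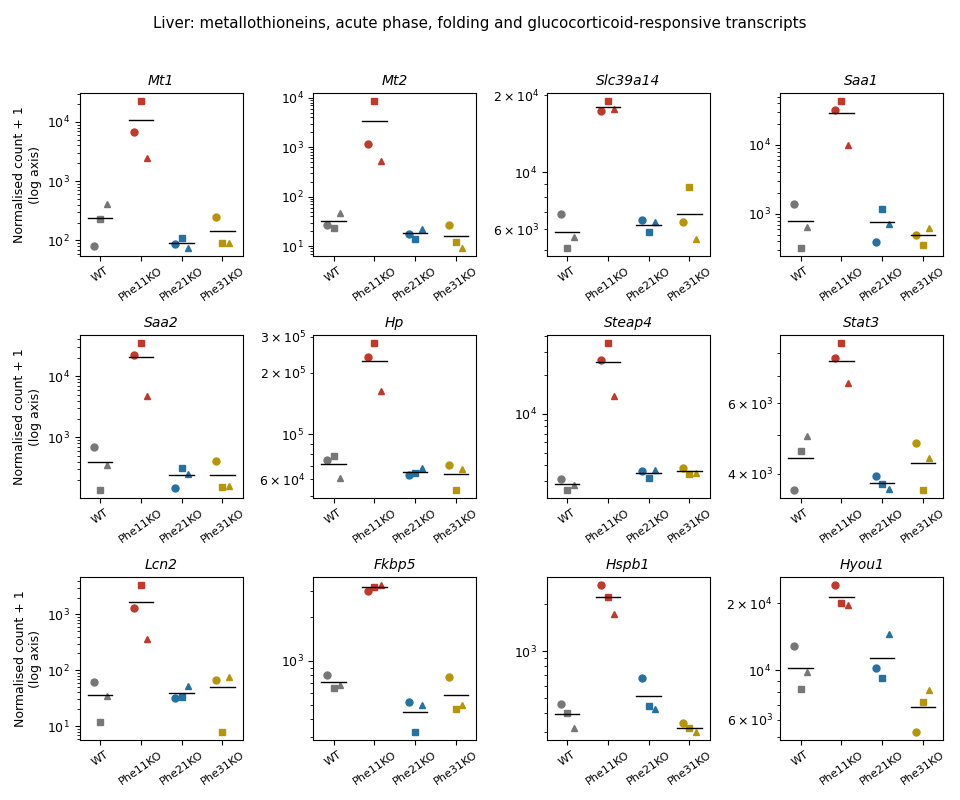
Normalised counts plus 1 on a log axis for 12 genes in the liver, by genotype on the horizontal axis; circles, squares and triangles are samples A, B and C, and the bar is the group mean. All 3 Phe11KO samples lie above all 3 Phe21KO samples for each gene, for example 2488 to 22706 against 72.8 to 109 for Mt1.

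Clock transcripts moved in opposite directions according to their arm. Of 19 listed clock genes, all tested, 6 were higher and 3 lower in Phe11KO, with a median log2 difference of 0.56. Each of the 3 activator genes was lower. Npas2 was counted at 3.76, 18.5 and 5.12 in Phe11KO A, B and C against 171, 154 and 69.1 in Phe21KO, a log2 difference of -3.90 ± 0.74 (adjusted p = 0.00546). Bmal1 was counted at 98.8, 466 and 101 against 1283, 1272 and 764, a log2 difference of -2.68 ± 0.59 (adjusted p = 0.012), and Clock had the smallest fall of the 3, -0.78 ± 0.15. Groups did not overlap for any of the 3 genes, and the second Phe11KO liver was the closest to Phe21KO in each. Leaving out 1 library ended the call of Bmal1 (Phe21KO B, adjusted p = 0.0523).

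The repressor arm was higher in 4 of 10 genes and lower in none. Per1, a period gene that glucocorticoids are also known to induce, was counted at 739.6, 1047 and 1079.6 against 50.5, 38.1 and 32.3, and Per3 at 1413, 509 and 1851 against 60.9, 78.3 and 196. Ciart, which encodes a repressor of the BMAL1 and CLOCK pair, was counted at 508, 105 and 504 against 8.81, 7.61 and 2.77. The log2 differences were 4.54 ± 0.52 (adjusted p = 0.000385) for Per1, 3.48 ± 0.60 (adjusted p = 0.00353) for Per3 and 5.46 ± 0.70 (adjusted p = 0.000711) for Ciart. Per2 rose by 2.57 ± 0.54. For Per3 and Ciart the second Phe11KO liver was the lowest of its group, whereas for Per1 the first was.

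The output factors of the PAR bZIP family, which carry clock timing to metabolic genes, were higher in 2 of 3 cases. Dbp was counted at 2776, 853 and 3069 against 36.9, 84.8 and 383, and Tef at 6662, 3436 and 8372 against 1296, 1505 and 2487. Dbp varied widely within Phe21KO, and its log2 difference was 4.17 ± 0.98 (adjusted p = 0.0155), while that of Tef was 1.77 ± 0.40 (adjusted p = 0.0136). Phe31KO livers spread as widely, with Dbp at 170.0, 2173 and 1343 and Npas2 at 121, 11.3 and 36.2, and WT livers gave 67.4, 28.7 and 67.5 for Dbp and 321, 257 and 414 for Npas2. The hour at which tissue was taken was not given in the sources used here, so hour and genotype cannot be told apart for these transcripts. The same limit holds for every other transcript given in this report that cycles daily, among them Elovl3, Noct and Usp2. With 1 library left out, the call ended for Dbp (Phe11KO A, Phe21KO A or Phe21KO B, adjusted p up to 0.0621) and Tef (Phe21KO B, 0.0578).

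The Ciart window (RefSeq, GRCm38.p6, chr3:95882179-95882478, minus strand) is shown because it held more copies of the E-box, the site to which the activator pair binds, than any other promoter of the genes in the list that passed. The E-box was searched as CACGTG, which reads the same on both strands, and matches are in capitals.
Ciart: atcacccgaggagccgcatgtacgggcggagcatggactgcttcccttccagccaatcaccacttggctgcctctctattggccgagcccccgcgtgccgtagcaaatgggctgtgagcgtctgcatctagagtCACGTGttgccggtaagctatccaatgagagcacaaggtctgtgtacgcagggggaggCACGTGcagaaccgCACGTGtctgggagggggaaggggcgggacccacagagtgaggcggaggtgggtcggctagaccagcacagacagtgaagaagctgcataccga
The 3 matches began 116, 58 and 44 bases before the start site. An E-box was held by 3 of the 8 clock genes that passed and had a window (Ciart, Per1 and Tef) and by 5 of all 16 tested clock genes with a window. By comparison it was held by 11.3% of all tested genes with a window and by 7.15% of all windows. The D-box, TTATGTAA or TTATGCAA on either strand, was held by Per1 and Per3 and by 1.66% of all windows. Matches of different motifs shared no bases in the windows printed here.

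**Figure D2:**
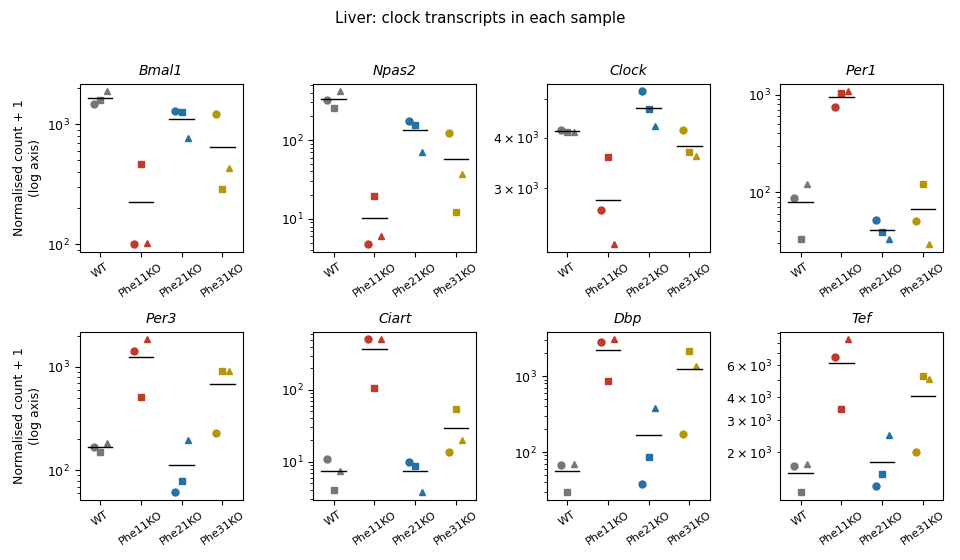
Normalised counts plus 1 on a log axis for 8 clock genes, by liver genotype on the horizontal axis; circles, squares and triangles are samples A, B and C, and the bar is the group mean. Bmal1, Npas2 and Clock lie lower, and the other 5 genes higher, in every Phe11KO sample than in every Phe21KO sample.

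Of 15 listed targets of the glucocorticoid receptor, all tested, 7 were higher in Phe11KO and none lower. Fkbp5, which encodes a co-chaperone of the glucocorticoid receptor and is a standard marker of its activity, was counted at 3040.5, 3238 and 3338 against 524, 322 and 496. The groups were narrow, and the log2 difference was 2.87 ± 0.21 (adjusted p = 2.9e-05). Lpin1, a phosphatidate phosphatase gene of triglyceride synthesis, was counted at 11936, 16834 and 24180.1 against 1429, 1610.5 and 1393, a log2 difference of 3.52 ± 0.37 (adjusted p = 0.000229). Tsc22d3, the gene of the anti-inflammatory protein GILZ, rose by 1.45 ± 0.29, and Zbtb16 by 1.83 ± 0.33. The receptor gene Nr3c1 and Hsd11b1, whose enzyme regenerates active glucocorticoid, were lower, with log2 differences of -0.30 and -0.37. The call was lost, on leaving out 1 library, for Hsd11b1 (any but Phe11KO C, adjusted p up to 0.165).

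Cytosolic heat shock genes rose as a group, with 14 of 18 higher, none lower and a median log2 difference of 0.99. Hspb1, a small heat shock protein gene, was counted at 2678, 2244 and 1739 against 675, 444 and 424, a log2 difference of 2.12 ± 0.20 (adjusted p = 0.000144). Hsph1, a nucleotide exchange factor of HSP70, was counted at 4532, 3541 and 3882 against 1343, 822 and 1011, a log2 difference of 1.93 ± 0.19 (adjusted p = 0.000173). No Phe11KO liver overlapped the Phe21KO livers for either gene. The abundant chaperones Hspa8, Hsp90aa1 and Hsp90ab1 rose by 1.19, 1.31 and 0.99 on the log2 scale, and the HSP90 co-chaperones Ahsa1 and Stip1 by 0.65 and 0.71. Hspa1b, a stress-induced HSP70 gene with a near-identical copy, varied widely at 2415, 854 and 3346 against 619, 373 and 589. Calls that ended without 1 library were those of Hspa1b (any but Phe11KO B, adjusted p up to 0.124).

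Genes for protein folding in the endoplasmic reticulum (ER) were higher in 18 of 54 cases and lower in none, with a median log2 difference of 0.28. Chaperones passed most often, in 8 of 13 cases, followed by the stress sensors (2 of 4), disulfide formation (4 of 10), ER-associated degradation (3 of 10) and translocation and glycosylation (1 of 17). Hyou1, an HSP70-like chaperone of the ER lumen, was counted at 24231, 19965 and 19734 against 10217, 9217 and 14619, and its log2 difference was 0.93 ± 0.21 (adjusted p = 0.0136). The HSP40 partners Dnajc3 and Dnajb11 had log2 differences of 0.55 ± 0.11 and 0.66 ± 0.14. Pdia3, a disulfide isomerase gene for glycoproteins, was counted at 15532, 16644 and 13991 against 9145, 9169 and 11061 (log2 difference 0.65 ± 0.09, adjusted p = 0.00121). Pdia5 and Txndc11, of the same thioredoxin-fold family, rose by 0.66 and 0.79. Leaving out 1 library ended the call of Hyou1 (Phe11KO A or Phe21KO B, adjusted p up to 0.0655).

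Syvn1, the ubiquitin ligase of ER-associated degradation also known as HRD1, showed the largest ER difference that passed, at 3383, 2489 and 2359.7 against 815, 787 and 1140.2, a log2 difference of 1.59 ± 0.20 (adjusted p = 0.000585). Herpud1, which works with it at the membrane, was counted at 22053, 11279 and 27962 against 6889, 6986 and 7957. The translocon gene Sec61a1, the mannosidase-like Edem1 and the sensors Atf6 and Eif2ak3 rose by 0.35, 0.29, 0.31 and 0.74. The third Phe21KO liver was the highest of its group for Hyou1, Pdia3, Syvn1 and Herpud1. Without Phe11KO A or without Phe21KO B, 7 genes of the ER list passed in each case, in place of 18. With 1 library left out, the call ended for Sec61a1 (Phe11KO A, Phe21KO A or Phe21KO B, adjusted p up to 0.0667), Edem1 (any but Phe11KO C or Phe21KO C, up to 0.134), Atf6 (any but Phe11KO B, up to 0.0853) and Eif2ak3 (any but Phe11KO B, up to 0.134).

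Hspa5, the gene of the chief ER chaperone BiP, was counted at 58512, 40623 and 51809.6 against 30402, 26922 and 41236, and its groups overlapped, with the second Phe11KO liver just under the third Phe21KO liver (log2 difference 0.62 ± 0.19, adjusted p = 0.0463). Its window (RefSeq, GRCm38.p6, chr2:34771840-34772139, plus strand) is shown because it carries the ER stress response element (ERSE), to which ATF6 is known to bind, in capitals. The element was searched on both strands as CCAAT followed after 9 bases by CCACG.
Hspa5: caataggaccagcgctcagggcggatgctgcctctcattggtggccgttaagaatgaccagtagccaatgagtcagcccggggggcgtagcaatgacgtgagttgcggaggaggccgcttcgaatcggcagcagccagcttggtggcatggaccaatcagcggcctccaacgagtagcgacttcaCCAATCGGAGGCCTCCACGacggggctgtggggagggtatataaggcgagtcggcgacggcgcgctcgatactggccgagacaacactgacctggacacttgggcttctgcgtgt
This match began 65 bases before the start site. The element was found in 6 of the 15 ER genes that passed and had a window (Hspa5, Hsp90b1, Pdia6, Dnajc3, Creld2 and Syvn1) and in 10 of all 47 tested ER genes with a window. By comparison it was found in 0.193% of all tested genes with a window, 0.805% of those higher in Phe11KO (7 genes) and 0 of 999 of those lower. The call was lost, on leaving out 1 library, for Hspa5 (any but Phe11KO B or Phe21KO C, adjusted p up to 0.175).

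The ATF4 response, the arm of the integrated stress response that follows amino acid or folding stress, had 3 of 25 tested genes higher and 1 lower, close to the 15.9% of all genes that passed. The list's median log2 difference was 0.46, with 18 of 25 values above 0 and 10 genes at an unadjusted p under 0.05. Phe11KO B stood far above A and C for some genes with positive values that did not pass. Asns was counted at 530, 3599 and 529 in Phe11KO A, B and C, Psat1 at 115, 384 and 54.2 and Phgdh at 23.5, 354 and 2.05. Phe11KO B was not the highest for Ddit3, Sesn2, Chac1, Slc7a5, Eif4ebp1 or Slc6a9, whose values were also above 0. The rises numbered 1 without Phe21KO B and 6 without Phe11KO C, and the falls 2 without Phe11KO C and 0 without Phe21KO A or B. Cebpg, a partner factor of ATF4, rose by 0.57 ± 0.12, and the amino acid transporter gene Slc38a2 was counted at 6790.5, 13193 and 6658 against 4002, 3767 and 4651. Atf4 itself was lower, at 3024, 2980.1 and 2734 against 4557, 4054 and 3721, a log2 difference of -0.49 ± 0.12 (adjusted p = 0.017), and Ddit3, the gene of CHOP, was higher by 0.68 ± 0.19. Calls that ended without 1 library were those of Slc38a2 (Phe21KO B, adjusted p = 0.0554), Atf4 (Phe21KO A or Phe21KO B, up to 0.0643) and Ddit3 (any but Phe11KO B, up to 0.123).

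None of the 3 phenylalanyl-tRNA synthetase genes passed under limma or edgeR, and 1 had an unadjusted p under 0.05. Farsa and Farsb encode the subunits of the cytosolic enzyme that charges tRNA-Phe, and Fars2 encodes the mitochondrial one. Farsa was counted at 901, 827 and 797 in Phe11KO A, B and C against 843, 667 and 736, and Farsb at 1112, 1048 and 1161 against 1079, 1207 and 1307. The groups overlapped for both genes, with log2 differences of 0.17 ± 0.13 (adjusted p = 0.382) and -0.11 ± 0.10 (adjusted p = 0.475). Fars2 was counted at 1027, 762 and 1018 against 1087, 1361 and 1132, without overlap but with an adjusted p of 0.0758. Among the 9 genes listed for modification of the tRNA-Phe anticodon loop, Wdr6, the partner of the methyltransferase FTSJ1, was lower at 478, 577 and 469 against 1011, 936 and 858 (log2 difference -0.88 ± 0.11, adjusted p = 0.000585). Tyw5, the hydroxylase of the wybutosine base beside the anticodon, was lower at 147, 141 and 105 against 246, 356 and 274, a log2 difference of -1.15 ± 0.17. Ftsj1 was higher by 0.34 ± 0.10 and the other 6 did not pass. Of 20 cytosolic tRNA synthetase genes in the list, 3 were higher (1 without Phe11KO A, Phe11KO B, Phe21KO A or Phe21KO B) and 1 lower. Together these are 20% of the list, beside 15.9% of all genes tested. Wars1 rose by 0.50 ± 0.11 and Tars1 fell, from 6706, 7480.3 and 5933 in Phe21KO to 4582, 4893 and 4958 in Phe11KO. Leaving out 1 library ended the call of Ftsj1 (any but Phe11KO B, adjusted p up to 0.135) and Tars1 (Phe11KO A or Phe21KO B, up to 0.082).

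The largest falls were led by Rfx4, a transcription factor gene. Rfx4 was counted at 18.8, 1.76 and 17.4 against 143, 212 and 157, a log2 difference of -4.08 ± 0.66 (adjusted p = 0.00245). Clec2h, a C-type lectin gene, was counted at 25.4, 39.7 and 47.1 against 384, 578 and 533, and Erbb4, a receptor tyrosine kinase gene, at 26.3, 24.7 and 53.2 against 229, 424 and 466. Every Phe11KO liver lay below every Phe21KO liver for these genes, and their log2 differences were -3.72 ± 0.48 (adjusted p = 0.000739) and -3.41 ± 0.32 (adjusted p = 0.000128). Spon2, which encodes a secreted matrix protein, and Rnf125, which encodes a ubiquitin ligase, had log2 differences of -3.30 ± 0.29 and -3.12 ± 0.23. Aqp8, a water channel of the hepatocyte, was counted at 439, 220.4 and 1038 against 3542, 8504 and 4136. Mreg, the melanoregulin gene, had the lowest adjusted p of all, 2e-05, at 505, 537 and 499 against 1565, 1874 and 1446. Among the rises not yet given, Rgs1, a regulator of G-protein signalling found mainly in leukocytes, was counted at 516, 615 and 282 against 7.21, 6.52 and 56.2. The unnamed gene model Gm42031 was counted at 2044, 3286 and 1937 against 335, 257 and 231.

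Genes of bile acid metabolism were lower in 13 of 34 tested cases and higher in 2, with a median log2 difference of -0.45. Hsd3b7, an early enzyme of bile acid synthesis, was counted at 11909.7, 10127 and 11978 against 26788, 28691 and 28157, a log2 difference of -1.30 ± 0.11 (adjusted p = 9.14e-05). Abcb11, the bile salt export pump gene, was counted at 22259, 25794 and 22160.1 against 33862, 38989 and 35177, a log2 difference of -0.62 ± 0.09 (adjusted p = 0.00166). Groups were apart for both genes. Cyp8b1, the sterol hydroxylase of cholic acid synthesis, was counted at 7359, 1515 and 7856 against 16728, 18352 and 14590.1, with the second Phe11KO liver far below the others. Nr0b2, which encodes the repressor SHP, was lower, with a log2 difference of -1.52 ± 0.32, as was the uptake transporter Slco1a4, at -2.12 ± 0.45; the regulators Hnf4a and Nr5a2 rose by 0.61 and 0.46. Without Phe21KO B the falls numbered 7 and without Phe21KO C 6, and the rises 1 without Phe21KO C and 4 without Phe11KO C. With 1 library left out, the call ended for Cyp8b1 (Phe21KO A, Phe21KO B or Phe21KO C, adjusted p up to 0.102) and Nr5a2 (Phe21KO C, 0.0606).

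Cytochrome P450 genes of families 1 to 3, with their receptors and reductase, were lower in 10 of 45 tested cases and higher in 2. Cyp3a11, a major drug-metabolising enzyme of mouse liver with close copies, was counted at 20832, 20953 and 14579 against 131947, 125730.0 and 105387, a log2 difference of -2.70 ± 0.76 (adjusted p = 0.0333). One of the Phe31KO livers, which enter the same estimate of spread, stood at 15662 beside 173092 and 225447 in the others. Cyp3a25 was counted at 5617, 3357 and 6306 against 16286, 17854 and 19526, and Cyp2j9 at 244, 152 and 240.5 against 830.1, 876 and 852, with log2 differences of -1.86 ± 0.27 (adjusted p = 0.00121) and -2.04 ± 0.22 (adjusted p = 0.00025). Por, the reductase that supplies electrons to these enzymes, was higher, at 10358, 11852 and 12500.4 against 3830.0, 2474 and 4081. Without Phe11KO A, Phe11KO B, Phe21KO A, Phe21KO B or Phe21KO C, the falls numbered 5, 6, 6, 4 and 4. The call was lost, on leaving out 1 library, for Cyp3a11 (any of the 6, adjusted p up to 0.101).

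Fatty acid oxidation and other targets of the lipid-sensing receptor PPAR-alpha were lower in 10 of 27 genes and higher in none, with a median log2 difference of -0.43. Ehhadh, a peroxisomal enzyme of this pathway, was counted at 8123, 7329 and 8119 against 12258, 16264 and 13838, a log2 difference of -0.84 ± 0.10 (adjusted p = 0.000587). Pdk4, the kinase that holds back pyruvate oxidation, was counted at 69.6, 112 and 116 against 275, 625 and 518, a log2 difference of -2.20 ± 0.30 (adjusted p = 0.000977). The mitochondrial enzymes Acadm, Hadha and Hadhb fell by smaller amounts, with log2 differences of -0.57, -0.39 and -0.43. WT livers gave 7731, 8243 and 8075 for Acadm and 7149, 8201 and 7629 for Hadhb, overlapping Phe11KO and below every Phe21KO liver. For Hadha they gave 11934, 11883 and 12086, between the groups. For Ehhadh and Pdk4 every WT liver lay above every Phe11KO liver. Without Phe21KO B the count of falls was 4. Calls that ended without 1 library were those of Hadha (Phe21KO B, adjusted p = 0.0679) and Hadhb (Phe21KO B or Phe21KO C, up to 0.053).

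In the fatty acid synthesis list, 2 of 22 genes were higher and 4 lower; Insig2, the ER protein that retains the SREBP machinery, was counted at 2947, 3615 and 2792 against 8413, 10821 and 10069.9, a log2 difference of -1.65 ± 0.12 (adjusted p = 2.9e-05). Gpam and Acss2, an acyltransferase and an acetyl-CoA synthetase, had log2 differences of -0.70 ± 0.16 and -1.14 ± 0.27, the carbohydrate-sensing factor Mlxipl -0.61 ± 0.19, and the desaturase Fads2 0.60 ± 0.14. Fads2 was counted at 16916, 23818 and 21179 in Phe11KO and 15042, 12660 and 12894 in Phe21KO. WT livers gave 15793, 20449 and 17626 for it, overlapping Phe11KO. Among the 22 genes, the falls numbered 1 without Phe11KO A, Phe11KO B or Phe21KO B and 2 without Phe21KO C, and the rises 1 without any one Phe11KO library and 0 without Phe21KO B or C. Elovl3, a fatty acid elongase gene known to cycle daily and to be higher in males, was counted at 3166, 3505 and 2084 against 27865, 21974 and 18898, a log2 difference of -2.99 ± 0.33 (adjusted p = 0.000323). Pparg, a lipogenic nuclear receptor, was counted at 105, 105 and 124 against 491, 490.4 and 432, a log2 difference of -2.07 ± 0.27, within a triglyceride storage list of which 3 of 21 tested genes were higher and 4 lower (2 without Phe11KO A or Phe21KO B). In cholesterol synthesis, 2 of 24 genes were higher and 4 lower, with Sc5d and Pmvk, both enzymes of the pathway, at -0.80 ± 0.11 and -0.93 ± 0.15. In that list, leaving out any library but Phe11KO C gave 2 falls, and leaving out Phe11KO B, Phe21KO B or Phe21KO C gave 1 rise. Leaving out 1 library ended the call of Gpam (any but Phe11KO C or Phe21KO A, adjusted p up to 0.0659), Acss2 (Phe11KO A, Phe11KO B or Phe21KO B, up to 0.0729), Mlxipl (any but Phe11KO C or Phe21KO A, up to 0.162) and Fads2 (Phe11KO B, Phe21KO B or Phe21KO C, up to 0.0741).

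Targets of NRF2, the factor of the oxidative stress response, were lower in 6 of 18 tested cases and higher in 1. Gclc, the catalytic subunit of the first enzyme of glutathione synthesis, was counted at 4000.3, 4904 and 3735 against 16043, 14314 and 15183, a log2 difference of -1.86 ± 0.20 (adjusted p = 0.000292). Ephx1, an epoxide hydrolase gene, was counted at 9171, 7040.2 and 6803 against 14327, 12333 and 13533, a log2 difference of -0.81 ± 0.16 (adjusted p = 0.00717). For both genes the Phe11KO livers lay below the Phe21KO livers. Without Phe21KO A, B or C the falls numbered 2, 3 and 3; the rises numbered 2 without Phe11KO C and 0 without Phe11KO A, Phe11KO B, Phe21KO B or Phe21KO C.

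**Figure D3:**
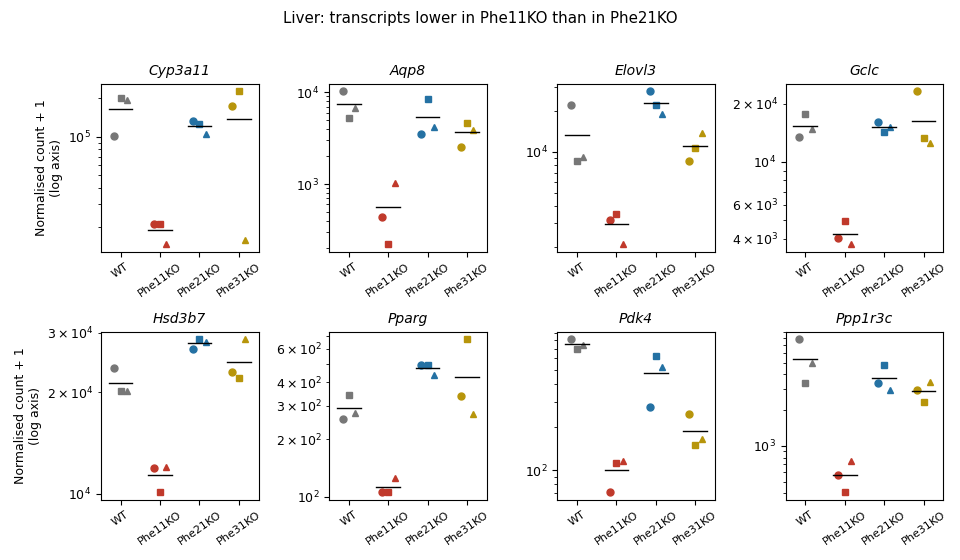
Normalised counts plus 1 on a log axis for 8 genes lower in Phe11KO, by liver genotype on the horizontal axis; circles, squares and triangles are samples A, B and C, and the bar is the group mean. Phe11KO samples lie under Phe21KO samples for every gene, for example 3735 to 4904 against 14314 to 16043 for Gclc.

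Of 27 glucose metabolism genes, 5 were higher and 2 lower; the rises numbered 3 without Phe11KO A, Phe11KO C or Phe21KO B, and the falls 4 without Phe11KO C. Ppp1r3c, which targets a phosphatase to glycogen, was counted at 572, 410.0 and 743 against 3392, 4809 and 2930.2, a log2 difference of -2.70 ± 0.30 (adjusted p = 0.000336). Pck1, the gluconeogenic enzyme and also a periportal marker, was counted at 93794, 106521 and 104314 against 24808, 22721 and 50666, a log2 difference of 1.73 ± 0.25. Pfkfb1, a bifunctional regulator of glycolysis, rose by 1.25 ± 0.15. Of 36 genes of amino acid disposal, 6 were higher and 1 lower (0 without Phe11KO A, Phe11KO B, Phe21KO B or Phe21KO C). That is 16.7% and 2.78% of the list, beside 7.37% and 8.53% of all genes tested. The urea cycle genes Asl and Arg1 were higher by 0.66 and 0.51, and the neutral amino acid transporter Slc1a5 by 1.43. Arg1 was counted at 41126, 59676 and 44729 in Phe11KO and 33925, 34077 and 33156 in Phe21KO, beside 41077, 46910 and 42945 in WT. Tat, which degrades tyrosine and is a glucocorticoid target, was counted at 37282, 79943 and 43574 against 15361, 16932 and 21416. WT livers gave 38113, 39669 and 37038 for Tat, overlapping Phe11KO, and Phe31KO livers 31650, 14211 and 24214. Of the 10 genes of phenylalanine and tyrosine breakdown, Tat was the only one higher, and 2 were lower, Gstz1 (-0.42) and Gchfr (-0.32). Of 27 zonation genes, none of 15 pericentral genes passed under limma or edgeR, 3 had an unadjusted p under 0.05, and 2 of 12 periportal genes were higher; the list's rises numbered 1 without Phe11KO B or any one Phe21KO library. The 2 rises are 7.41% of the zonation list, the same level as the 7.37% of all genes tested. With 1 library left out, the call ended for Arg1 (any but Phe11KO A or Phe11KO C, adjusted p up to 0.0832), Gstz1 (any but Phe11KO C, up to 0.106) and Gchfr (any but Phe11KO C, up to 0.139).

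Growth hormone and sex-biased genes passed in 10 of 34 tested cases, 4 higher and 6 lower. Cyp17a1, a steroid hydroxylase gene listed as higher in female liver, was counted at 1064, 5343 and 905 against 97.0, 70.7 and 109.7, a log2 difference of 4.23 ± 0.59 (adjusted p = 0.00104). The signalling genes Ghr and Stat5b were lower, with log2 differences of -0.79 and -0.87. Without Phe21KO A, B or C the falls numbered 3, 2 and 3. The rises numbered 2 without Phe11KO C or Phe21KO B. In the cell cycle list, 2 of 39 genes were higher, both of the replication and G1 group: Ccne1, the cyclin of the entry into S phase, at 126, 75.8 and 59.4 against 9.62, 10.9 and 8.30, and Rrm2, a subunit of ribonucleotide reductase, at 185, 145 and 265 against 60.9, 92.4 and 82.0. None of the 23 mitosis genes passed under limma or edgeR, and 0 had an unadjusted p under 0.05. The 2 rises are 5.13% of the cell cycle list, a smaller share than the 7.37% of all genes tested. Of 15 iron and haem genes, 1 was higher (3 without Phe11KO C, 2 without Phe21KO A and 0 without any of the other 4 libraries) and 2 lower (1 without Phe21KO B). Together these are 20% of the list, beside 15.9% of all genes tested. Alad, an enzyme of haem synthesis, and Hjv, a regulator of hepcidin, were the lower ones, with log2 differences of -0.50 and -0.53. The call was lost, on leaving out 1 library, for Ghr (Phe21KO A or Phe21KO B, adjusted p up to 0.069), Rrm2 (any but Phe11KO B, up to 0.101) and Hjv (Phe21KO B, 0.0554).

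Nuclear genes of the respiratory chain and ATP synthase were lower in 37 of 77 tested cases and higher in none, with small differences: the median log2 difference was -0.25 and the lowest -0.55. Atp5me, a small ATP synthase subunit gene, was counted at 2003, 1793 and 2039 against 2840.4, 2907 and 2775, a log2 difference of -0.55 ± 0.08 (adjusted p = 0.00109), and Atp5mf at 3069, 3093 and 3223 against 3856, 4243 and 3844. Groups did not overlap for 59 of the 77 genes, all of them lower, beside 38.0% of all genes tested in either direction. The count depended on single libraries: without Phe21KO B 5 genes were lower, without Phe11KO A 17, without Phe11KO B 17, without Phe21KO A 21 and without Phe21KO C 19. Transcripts of the mitochondrial genome took 4.09% to 4.17% of normalised counts in Phe11KO and 4.82% to 5.11% in Phe21KO, without overlap. None of its 13 rRNA and protein transcripts passed under limma, 1 had an unadjusted p under 0.05 and 1 passed under edgeR. Their log2 differences were above 0 for 7 and below 0 for 6, with a median of 0.00. Groups did not overlap for 3 of the 13, all lower, a smaller share than the 38.0% of all genes tested.

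Other large complexes moved less. Of 75 mitochondrial ribosomal protein genes, 9 were lower and none higher; Mrpl14 had a log2 difference of -0.56 ± 0.10 and Mrps9 of -0.36 ± 0.09. Without Phe11KO A, Phe11KO B, Phe21KO A, Phe21KO B or Phe21KO C, the falls numbered 3, 2, 3, 1 and 2. Of 38 tested proteasome genes, 5 were lower, among them Psma7 (-0.33 ± 0.07) and Psmd4 (-0.32 ± 0.07); without Phe11KO A, Phe21KO A, Phe21KO B or Phe21KO C, 2, 2, 1 and 3 were. The lower genes were 12% of the mitochondrial ribosomal list and 13.2% of the proteasome list, beside 8.53% of all genes tested. Of 78 tested cytosolic ribosomal protein genes, 2 were lower, Rpl36 (-0.33 ± 0.10) and Rpl11 (-0.19 ± 0.06), a smaller share than the 8.53% of all genes that were lower. Calls that ended without 1 library were those of Mrps9 (Phe11KO A, Phe21KO A or Phe21KO B, adjusted p up to 0.0894), Psmd4 (Phe21KO A or Phe21KO B, up to 0.0546), Rpl36 (any but Phe11KO C, up to 0.159) and Rpl11 (any of the 6, up to 0.145).

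**Figure D4:**
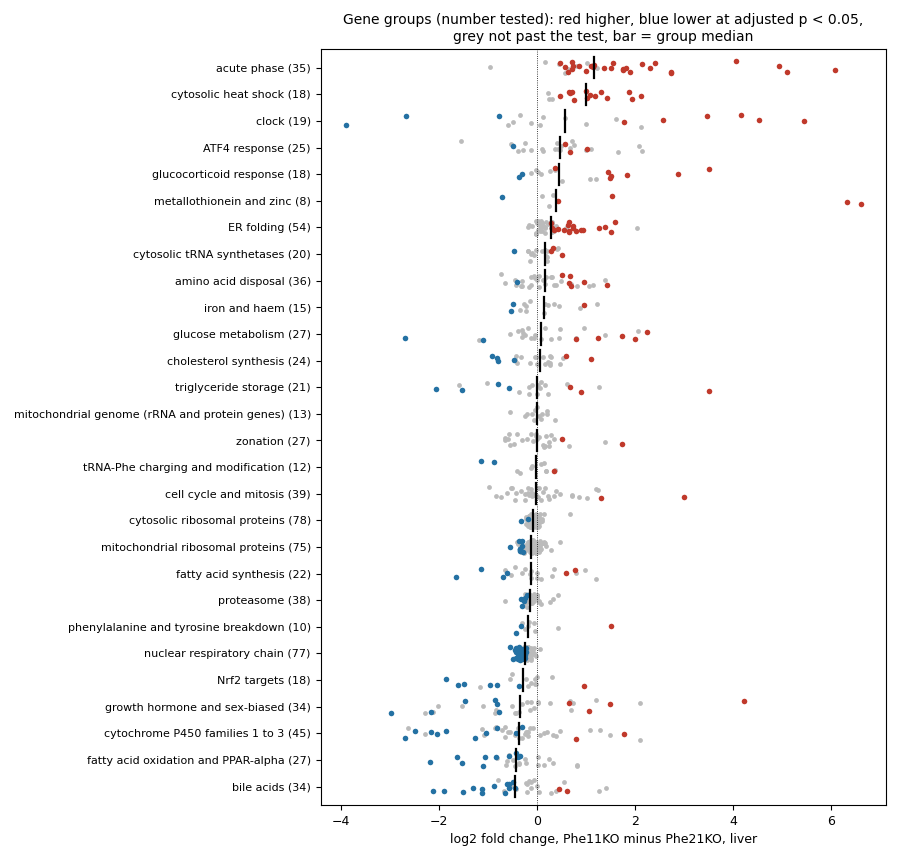
Log2 difference between Phe11KO and Phe21KO livers (horizontal axis) for each tested gene of 28 groups, with the number tested in brackets; red and blue points are higher and lower at an adjusted p under 0.05, grey points did not pass, and the bar is the group median. Medians run from -0.45 for bile acids to 1.17 for the acute phase.

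Phenylalanine codons were counted because the deleted genes decode them. A complete coding sequence (canonical transcript, GENCODE vM39) was found for 13026 of the 13128 protein-coding genes tested. Phenylalanine codons made up a median of 3.60% of codons in all genes tested, 3.60% in genes higher in Phe11KO and 3.85% in genes lower, and the quartiles of these last 2 sets were 2.66% and 4.59%, and 2.86% and 4.85%. When the genes were cut into 10 bins of equal size, the bin with the highest share, from 5.81% upwards, had 7.21% of its genes higher and 12.6% lower, and the bin with the lowest share, up to 1.90%, had 8.06% higher and 7.21% lower. The median log2 difference was -0.05 in the highest bin and 0.02 in the lowest. Across these genes, which are not independent replicates and share the 6 libraries, Pearson's correlation of the share with the log2 difference was -0.04. Genes lower in Phe11KO also had shorter coding sequences, with a median of 412 codons against 503 for those higher.

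The same contrast in the brain, with 3 samples per group, gave 102 genes of 19228 tested, 0.530%. Of those, 86 were tested in the liver and 41 passed there too, which is 40.2% of the brain's genes and 1.63% of the liver's. All 41 had the same sign in both tissues, 37 higher and 4 lower in Phe11KO. The brain and liver tables were normalised separately, so log2 differences are set side by side and not tested against each other. Mt1 and Mt2 differed by 0.79 and 1.11 in the brain, against 6.34 and 6.61 in the liver, whereas Hspa5 differed by 0.99 against 0.62 and Sdf2l1, an ER chaperone partner, by 1.29 against 0.90. Per2 (1.66 in the brain, 2.57 in the liver), Fkbp5 (1.26 and 2.87), Tsc22d3 (1.35 and 1.45) and Lcn2 (6.34 and 4.94) were also higher in both. The 4 genes lower in both were Cirbp, which encodes a cold-inducible RNA-binding protein (-1.02 and -1.85), the endothelial genes Cldn5 (-0.50 and -1.40) and Tek (-0.54 and -0.84), and Zc3h6 (-0.58 and -1.96). By list, the brain had 7 of its 13 ER chaperones, 5 heat shock genes, 3 clock genes and 1 acute phase gene higher. The brain's count fell to between 11 and 57 when Phe11KO B, Phe11KO C or any Phe21KO sample was left out, and was 6 with those 6 samples alone in the fit. In the liver, the call of Sdf2l1 ended without 1 library (Phe11KO A or Phe21KO B, adjusted p up to 0.071).

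**Figure D5:**
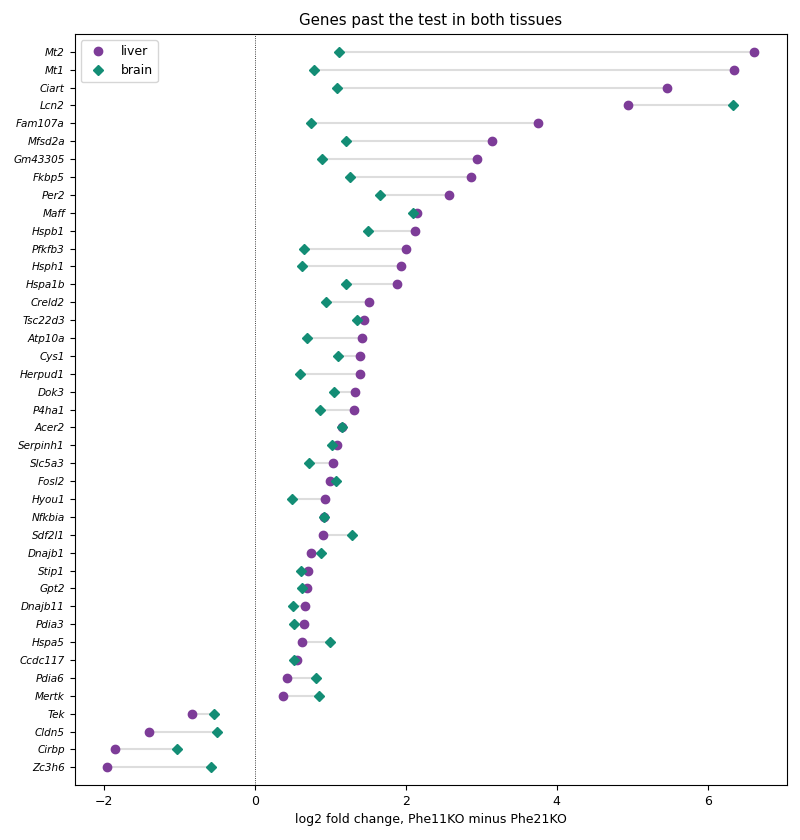
Log2 difference between Phe11KO and Phe21KO (horizontal axis) in liver (circles) and brain (diamonds) for the 41 genes past the test in both tissues, ordered by the liver value. Points of both tissues lie on the same side of 0 for every gene, 37 to the right and 4 to the left.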

How the data were processed

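RNA from 12 liver and 12 brain samples was sequenced by the authors. Reads were trimmed with Trim Galore and cutadapt, aligned with STAR to GRCm38.p6 masked for nuclear copies of mitochondrial DNA, and quantified with Salmon, with correction for sequence and GC bias. The deposited values were counts per gene that the authors divided by DESeq2 size factors within each tissue, a normalised signal whose values were whole reads after rescaling (100% within 0.01). Tables of the authors' own comparisons hold fold changes and s-values and were not used.

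Values were analysed as log2(normalised count + 1), so fold changes of low genes are understated. The fit used limma 3.58.1 in R 4.3.3 with a trended variance over all 12 livers, a mean of at least 10 and Benjamini-Hochberg adjustment; log2 differences are Phe11KO minus Phe21KO with their standard error, n = 3 per group. An exact permutation test of 3 against 3 cannot go below 0.1. No pair of replicates agreed within sampling noise. On simulated counts for 15726 genes the liver fit recovered 54 of 91 genes changed 2-fold and 95 of 104 changed 4-fold, with 6 false calls. Alternatives used edgeR 4.0.16 and DESeq2 1.42.0 on the recovered reads, other filters, pseudocounts and scalings, and fits without single libraries.

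Members and gene lists were chosen with earlier results of these data known. Named genes were the top 10 in each direction by log2 difference, if protein-coding, not predicted, past an adjusted p of 0.05, with a mean of at least 50 and without overlap; up to 2 genes per list and up to 3 per role of 5 lists by adjusted p; the 3 phenylalanyl-tRNA synthetase genes; and the 3 lowest adjusted p overall. Other list members were chosen as examples after their values were seen, as were those of the closing observations. Some genes that met these rules are not reported here.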

Additional observations from a re-analysis of the deposited data

Results flagged for a closer look

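For 2 of the named genes, every liver sample moved one way and every brain sample the opposite way between Phe11KO and Phe21KO. Ppp1r3c had a log2 difference of -2.70 in the liver and 0.42 in the brain, where the adjusted p was 0.155. Tars1 had a log2 difference of -0.47 in the liver and 0.19 in the brain, where the adjusted p was 0.365. The difference between the tissues was not tested.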

How the results depend on the processing

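In the liver, no call shared with an alternative changed sign. The count of 2521 genes was 2495 with edgeR, 3359 with DESeq2, 1959 with only the 6 samples in the fit, 2025 without a filter and 2051 without a variance trend, and the other pseudocounts, filter and scalings gave 2446 to 2529. Leaving out one library gave 1150 to 2572 genes, with 539 to 1130 higher and 611 to 1442 lower, the lowest without Phe21KO B. With the letters A, B and C as a replicate block, 2128 genes passed in the liver, 2055 of them shared with the fit without it, and 88 in the brain; not every sample correlated best with its own letter, and same-letter deviations correlated at -0.02, -0.08 and 0.03. The brain count of 102 was 671 with DESeq2, 108 with edgeR, 6 with only the 6 samples and 11 to 81 without one library; the cause was not tested. Over the 97 named genes and all alternatives, 1533 of the refitted values kept their direction and side of the threshold, 115 kept the direction but missed the threshold, most often without Phe21KO B (24), and 0 reversed. With 3 samples per group, the simulated fit missed many 2-fold changes.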

Other observations

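The 10 rises and 10 falls that came next in size after those named above held further genes of the same kind and some others. Noct, a deadenylase-family gene that cycles with the clock and answers acute stimuli, was counted at 2183, 3439 and 2159 in Phe11KO A, B and C against 167, 107 and 215 in Phe21KO, a log2 difference of 4.01 ± 0.37 (adjusted p = 0.00012). Usp2, a deubiquitinase gene with daily rhythm, was counted at 964, 183 and 873 against 40.9, 19.6 and 44.2. Tnfaip3, a feedback inhibitor of NF-kappaB, was counted at 568, 1843 and 365 against 60.9, 88.1 and 59.9. Groups did not overlap for any of these, and each passed in all 6 fits with one library left out. Esm1, an endothelial gene, was counted at 30.1, 236 and 130.0 against 5.61, 7.61 and 1.84. Leaving out 1 library ended the call of Esm1 (any but Phe11KO A, adjusted p up to 0.0999).

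Levels in the other genotypes were as follows for 3 of these genes. Nipal1, a magnesium transporter gene, was counted at 125, 570.4 and 104 in Phe11KO and 11.2, 12.0 and 10.1 in Phe21KO, beside 216, 443 and 1331 in WT and 902, 73.1 and 145 in Phe31KO. Esm1 stood at 27.4, 179 and 191 in WT, overlapping Phe11KO and above every Phe21KO liver. Elovl3, a fall named above, was counted at 22092, 8586 and 9139.8 in WT and 8537, 10656 and 13862 in Phe31KO, with 1 WT liver within the range of Phe21KO and the other values between the groups.

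Among the falls, Trmt9b, a gene of the tRNA methyltransferase family, was counted at 48.9, 54.7 and 60.4 against 396, 376 and 299.6, a log2 difference of -2.68 ± 0.19 (adjusted p = 2.9e-05). Coq8a, which acts in coenzyme Q synthesis, was counted at 2454, 3210.2 and 4555 against 16414, 20626 and 15333, a log2 difference of -2.39 ± 0.18 (adjusted p = 4.59e-05). Acss3, an acyl-CoA synthetase gene, was counted at 298, 95.2 and 586 against 1187, 1534 and 1517, with the second Phe11KO liver the lowest. Syt1, a synaptic vesicle gene, had a log2 difference of -2.21 ± 0.32. With 1 library left out, the call ended for Acss3 (Phe21KO B, adjusted p = 0.0543).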
